A study of Mus musculus with 8 samples.

Results

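The stress-responsive genes followed here through 8 libraries of mouse intestine were Fos, Fosb, Jun, Junb, Egr1, Atf3, Ier2, Hspa1a, Hspa1b and Dnajb1. They were chosen by symbol, are 10 of the 32285 genes that all 8 count tables hold, and each matched 1 row in every table. The first 7 are immediate-early genes and the last 3 encode heat shock proteins.

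The study profiled C57BL/6 mice with droplet-based 10x single-cell RNA-seq (4 libraries) and with 10x Visium spatial transcriptomics (4 sections). The organoid libraries (2) came from small intestinal organoids at passage 1, grown alone (control) or in coculture with partner cells that the labels do not name. For each, 16 wells were combined and epithelial cells were sorted. The tissue libraries (2) came from digested small and large intestine, processed apart from each other. Each joined sorted live cells with separately sorted LGR5+ stem cells and with lymphatic endothelial cells taken as CD31+ PDPN+ LYVE1+, so cell shares reflect the sort. C57BL/6 and Lgr5-eGFP-ires-CreERT2 mice, the latter also on a C57BL/6 background, were used for the sorts, with no ages given. The 4 Visium libraries were 10 µm cryosections stained by immunofluorescence, 2 technical duplicates from small and 2 from large intestine. The labels name no drug or injury treatment.

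Each group is thus 1 library, and the paired sections are technical duplicates, so no comparison between conditions was tested. Intervals below are 95% intervals that cover counting error only. Tissue cells and sections differ in dissociation, sorting, platform and cell makeup at once, and these cannot be told apart.

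Immediate-early genes are transcribed within minutes of a stimulus without new protein synthesis. Fos and Fosb encode partners of the Jun proteins in the AP-1 transcription factor, Egr1 a zinc finger factor, Atf3 a bZIP factor of the ATF/CREB family and Ier2 a nuclear protein. Hspa1a and Hspa1b encode inducible HSP70 chaperones, and Dnajb1 an HSP40 co-chaperone, all targets of heat shock factor 1. Enzymatic digestion of tissue is known to induce both groups in single-cell preparations, and AP-1 genes are also expressed in undisturbed gut epithelium.

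RefSeq promoter windows (GRCm38.p6) were found for 8 of the 10 genes, all but Egr1 and Ier2. Shown here are the 250 bases before the start of the 2 HSP70 genes, because these copies are near-identical and their counts are hard to separate, and of Fos and Jun, the AP-1 genes with the most UMIs (transcript molecules counted) in both tissue libraries. Capitals mark, in the HSP70 windows, a heat shock element (GAANNTTC) and a CCAAT box (read as ATTGG on the other strand). In Fos they mark TATAAA, and in Jun a CCAAT box and the variant cAMP response element TGACNTCA.
Hspa1a (chr17:34972157-34972406, minus strand): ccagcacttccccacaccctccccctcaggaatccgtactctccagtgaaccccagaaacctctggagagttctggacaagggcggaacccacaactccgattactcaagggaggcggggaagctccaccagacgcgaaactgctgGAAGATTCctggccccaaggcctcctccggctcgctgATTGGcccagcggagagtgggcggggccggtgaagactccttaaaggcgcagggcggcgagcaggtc
Hspa1b (chr17:34959239-34959488, minus strand): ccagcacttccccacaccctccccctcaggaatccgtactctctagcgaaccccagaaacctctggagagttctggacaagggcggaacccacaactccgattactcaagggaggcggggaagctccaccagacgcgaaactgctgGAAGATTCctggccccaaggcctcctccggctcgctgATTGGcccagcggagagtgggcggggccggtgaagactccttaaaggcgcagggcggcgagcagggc
Fos (chr12:85473640-85473889, plus strand): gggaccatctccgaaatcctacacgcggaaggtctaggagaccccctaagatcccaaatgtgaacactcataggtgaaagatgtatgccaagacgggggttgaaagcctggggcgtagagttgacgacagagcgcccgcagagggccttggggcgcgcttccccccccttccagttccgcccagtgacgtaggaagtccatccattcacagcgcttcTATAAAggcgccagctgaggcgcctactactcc
Jun (chr4:95052223-95052472, minus strand): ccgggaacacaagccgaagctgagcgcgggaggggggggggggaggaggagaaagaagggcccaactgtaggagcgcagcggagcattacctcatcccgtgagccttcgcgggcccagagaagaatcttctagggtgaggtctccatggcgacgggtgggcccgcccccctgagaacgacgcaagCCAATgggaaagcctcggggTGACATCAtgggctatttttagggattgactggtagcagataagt
The HSP70 windows were identical at 247 of 250 bases (98.8%), and both held the GAANNTTC match 104 to 97 bases before the start. Searched on both strands, GAANNTTC was found in 6.69% of all 32851 promoter windows, TGACNTCA in 7.49%, TATAAA in 12.4% and CCAAT in 33.8%. Jun also held GAANNTTC, 128 to 121 bases before its start. A match describes the letters only.

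On the GRCm38 (mm10) assembly, as placed by the RefSeq table, Fos lies on chromosome 12 (85473890 to 85477274), Fosb on chromosome 7 (19302696 to 19310118) and Jun on chromosome 4 (95049036 to 95052222). Junb (84976909 to 84978748), Ier2 (84661331 to 84662852) and Dnajb1 (83608175 to 83612653) lie on chromosome 8. Egr1 is on chromosome 18 (34861207 to 34864956) and Atf3 on chromosome 1 (191170296 to 191183333). Hspa1a (34969359 to 34972156) and Hspa1b (34956429 to 34959238) are neighbours on chromosome 17.

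The tables held 24356162 to 142501907 unique molecular identifiers (UMIs, 1 per captured transcript molecule) in each library. The filters left 538 cells of the control organoids, 1028 of the cocultured ones, 2695 from small intestinal tissue and 5882 from large. The sections kept 2094 and 2571 (small intestine) and 2094 and 2179 spots (large intestine). Of the 8842 deposited barcodes of the small intestinal tissue library, 5497 had more than 20% mitochondrial UMIs and were left out, so that library stands apart. The 2 tissue libraries shared 25 cell barcodes and the 2 organoid libraries none. A Paneth-like class of 192 cells was found in small intestinal tissue, and no Paneth-like class of 20 cells in the large intestine. Levels below are UMIs per 1000000 UMIs of a library or class (CPM). They are not per gene length, so they compare 1 gene between groups, not genes with each other.

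The AP-1 genes differed widely in how tissue cells compared with sections. Fosb was the extreme: tissue cells reached 75.9 CPM (small intestine) and 67.5 CPM (large intestine), whereas the level was 2.30 and 2.69 CPM in the small intestine sections (56 and 81 UMIs in all) and 5.31 and 5.29 CPM in the large intestine sections. Tissue cells thus held 28.2 times the level of the higher small intestine section and 12.7 times that of the higher large intestine section, on the log2 scale 4.82 (4.50 to 5.15) and 3.67 (3.47 to 3.87). Among the 11150 genes ranked by the smaller of their ratios in the 2 tissues, Fosb stood at rank 16. The 10 genes above all others by that rank were Vgll4, Nr2e3, Hmx3, Reg1, Zbtb12, Agr3, Rnf39, Pou5f1, Zfp146 and Slc1a2, of which Nr2e3 and Agr3 lead a stem-like class and Hmx3 a tuft-like class below.

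Egr1 followed. Its level was 134 CPM in small intestinal tissue cells, against 16.1 and 18.5 CPM in the sections of that tissue. Large intestinal cells gave 100.4 CPM and their sections 20.6 and 22.2 CPM. The log2 ratio to the higher section was 2.86 (2.73 to 2.99) in the small and 2.17 (2.08 to 2.27) in the large intestine, which placed it at rank 102. No tissue library came near its sections for either Fosb or Egr1.

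Fos, the founding AP-1 gene, was also abundant in sections. It measured 215 CPM in small intestinal tissue cells against 102 and 113 CPM in the sections, and 265 CPM in large intestinal tissue cells against 129.5 and 128 CPM, a log2 ratio of 0.93 (0.87 to 0.99) and 1.03 (0.99 to 1.08). Ier2 was 149 CPM against 56.0 and 50.6 CPM in the small intestine (1.41, 1.33 to 1.50) and 169.7 CPM against 90.0 and 92.0 CPM in the large (0.88, 0.83 to 0.93). Jun differed more in the large intestine: 277 CPM in cells against 66.9 and 70.3 CPM in sections, just under 4-fold (3.95). In the small intestine Jun was 211 CPM against 92.2 and 120.0 CPM, a log2 ratio of 0.81 (0.76 to 0.87).

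Junb and Atf3 did not share this order. Junb, an AP-1 subunit, was 139 CPM in small intestinal cells, a little below both sections (146 and 178 CPM), and 126 CPM in large intestinal cells, above both (75.4 and 81.2 CPM). Atf3 was 28.5 CPM in small intestinal cells, below the 56.6 and 76.7 CPM of the sections, and 55.8 CPM in large intestinal cells, where the sections gave 55.8 and 62.2 CPM. The section duplicates themselves differed for Atf3 by 0.44 (0.34 to 0.54) on the log2 scale in the small intestine, against a median absolute difference of 0.17 over 11550 genes.

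The HSP70 pair went opposite ways in the 2 tissues. Hspa1a was 5.90 CPM in small intestinal cells and 10.96 and 14.7 CPM in the sections, but 21.7 CPM in large intestinal cells and 9.82 and 8.90 CPM in the sections. Hspa1b was 7.55 CPM in small intestinal cells against 23.2 and 28.6 CPM, and 23.1 CPM in large intestinal cells against 16.0 and 16.3 CPM. How the reads were shared between these copies is uncertain. Their sum does not depend on how the counted UMIs were split, but whether reads that fit both copies were counted was not examined. The sum was 13.5 CPM (12.5 to 14.5) in small intestinal cells, below the 34.2 and 43.3 CPM of the sections. In large intestinal cells it was 44.8 CPM (43.6 to 46.0), above the 25.8 and 25.2 CPM of the sections. Dnajb1 was lower in cells than in sections in both tissues, at 29.5 CPM against 41.9 and 45.2 CPM in the small and 40.5 CPM against 50.7 and 50.4 CPM in the large intestine.

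**Figure D1:**
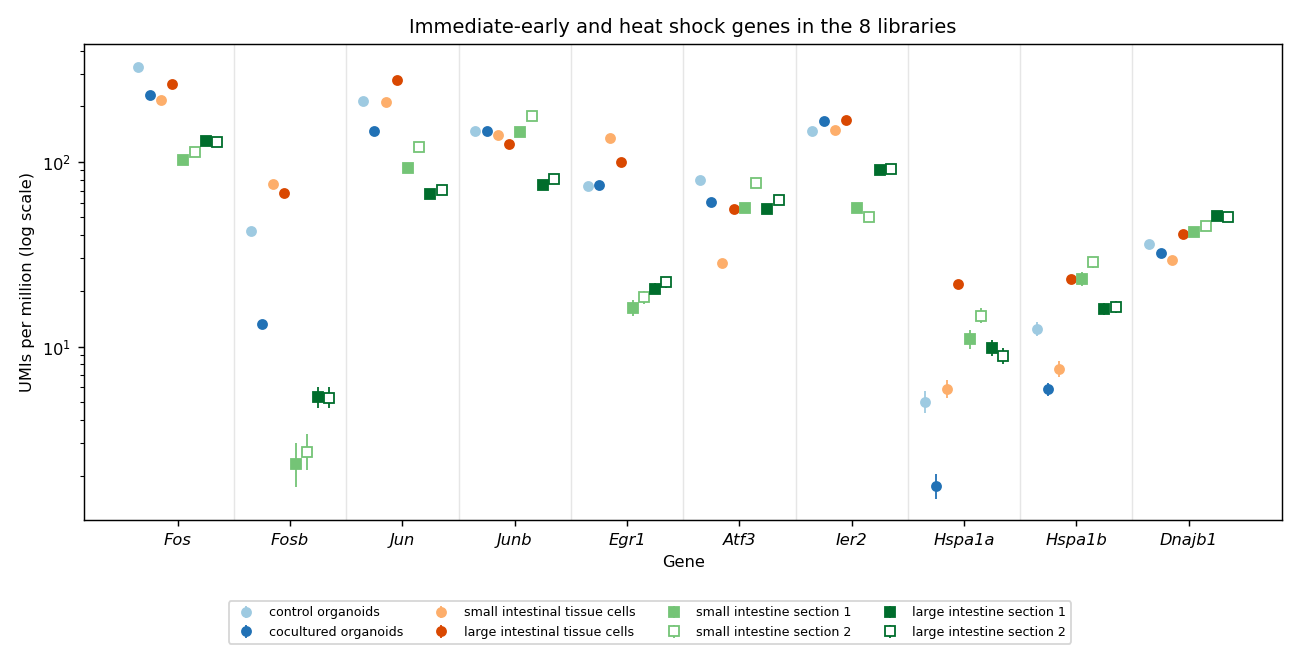
Each gene's level (CPM, log axis) in each of the 8 libraries, circles for cell libraries and squares for sections, with 95% Poisson intervals (counting error only). Fosb and Egr1 are well above the sections of their tissue in both tissue libraries, whereas Atf3 and the HSP70 genes of small intestinal cells are below theirs.

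With a gene called higher where its CPM was at least 4 times that of both sections (and 100 UMIs were seen in either group), 2 of the 10 genes, Fosb and Egr1, were higher in small intestinal tissue cells, where 4.67% of all 12920 tested genes were. The same 2 were higher in large intestinal cells, where 4.76% of genes were. There the log2 ratio of Egr1 was 1.98, just under the limit, when cells below 1000 genes or above 10% mitochondrial UMIs were left out, and Jun (2.61) and Hspa1a (2.27) passed it beside Fosb and Egr1 when each cell's CPM was averaged. None of the 10 was lower by 4-fold in either tissue, against 9.82% and 5.71% of genes. At 2-fold, 3 of the 10 were higher in the small intestine (15.3% of genes) and 5 in the large (16.0%). At that limit 1 gene, Hspa1b, was lower in the small (24.3% of genes), and 0 in the large (19.6%). Over the 7 immediate-early genes the median log2 ratio to the mean of the sections was 1.00 in the small and 1.04 in the large intestine, and over the 3 heat shock genes -1.12 and 0.52. Over all tested genes the medians were -0.15 and -0.03.

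Few other immediate-early genes were called higher. Of 28 further genes of this kind, 25 were tested in the small intestine, where 1 was higher by 4-fold and 5 lower, with a median log2 ratio of -0.81. In the large intestine 26 were tested, 0 were higher and 2 lower, with a median of -0.18. Egr3, a relative of Egr1, was the 1 higher gene (2.77 in the small, 0.33 in the large intestine), whereas Socs3, a feedback inhibitor of cytokine signalling, gave -2.61 and -0.41 and Klf4, an epithelial and vascular transcription factor, -2.11 and -1.75. Nr4a2, an orphan nuclear receptor, gave 1.48 and 1.62, and Nr4a1, its relative, -1.30 and -0.74.

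The other chaperone genes past 4-fold were different genes in the 2 tissues. Of 24 tested, 0 were higher and 3 lower by 4-fold in the small intestine (median 0.34), and 5 higher and 0 lower in the large (median 1.05). The 5 were Hsp90aa1 (2.41) and Hsp90ab1 (2.10), the cytosolic HSP90 chaperones, Ahsa1 (2.10), an activator of HSP90, Hspd1 (2.15), the mitochondrial chaperonin, and Hsph1 (2.10), an HSP110 exchange factor. The 3 that were lower in the small intestine were small heat shock proteins that smooth muscle expresses strongly: Hspb8 (-5.30), Cryab (-4.10) and Hspb1 (-4.09). The 11 reference genes had medians of -0.61 and -0.47, and 0 were called in either direction at 4-fold, but at 2-fold 2 were higher and 5 lower in the small intestine and 0 and 3 in the large.

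**Figure D2:**
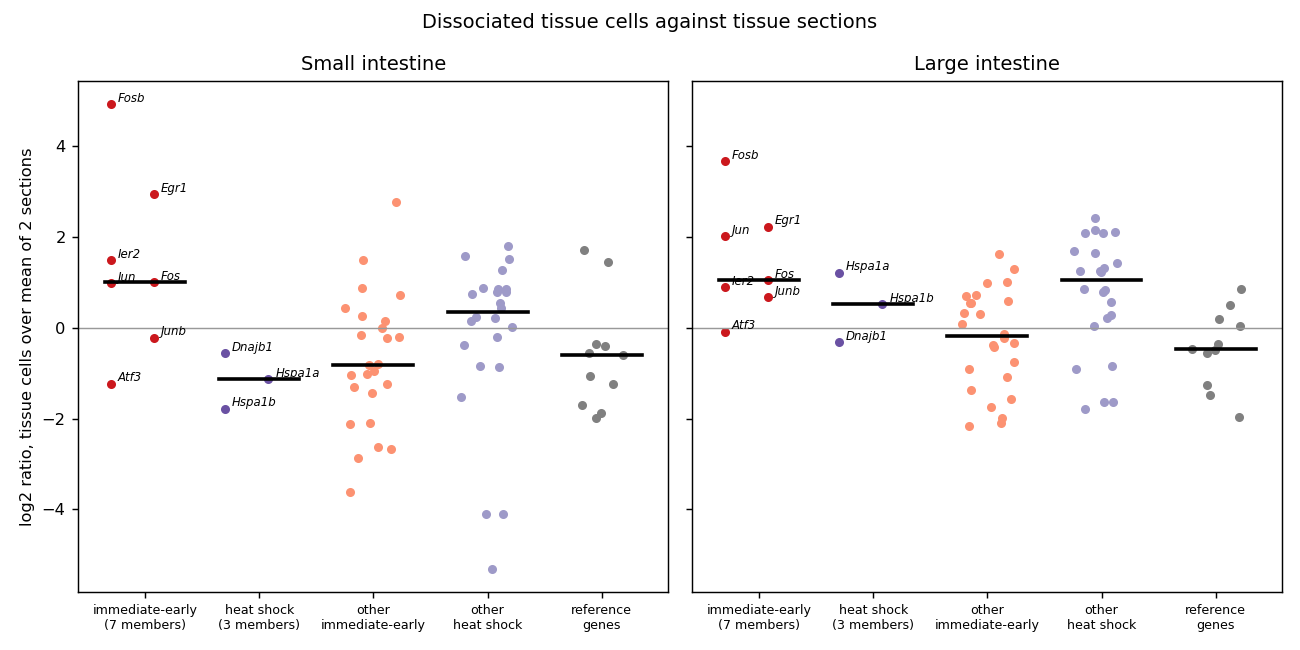
Log2 ratio of tissue cells to the mean of the 2 sections for each gene (points) with the median of each list (bars), small intestine left and large intestine right. Fosb and Egr1 top the 7 immediate-early genes in both tissues, and the other immediate-early genes centre below 0.

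Since sections hold muscle and tissue libraries hold sorted fractions, gated epithelial cells were also set against the lowest tertile of spots by smooth muscle UMIs, a comparison added after the data were seen. In 1128 small intestinal epithelial cells Fosb was 51.5 CPM against 1.52 and 2.41 CPM in those spots, and Egr1 was 101.4 CPM against 15.7 and 14.5 CPM. These 2 of the 9 genes with enough UMIs were called higher, where 6.06% of genes were, and 0 lower (10.7%). Fos no longer exceeded the sections: 139 CPM in epithelial cells lay between the 133 and 152 CPM of the spots. Ier2, at 140.2 CPM, remained above the 54.9 and 52.9 CPM of the spots. Among the genes below the spots were Junb (75.3 CPM against 168 and 206 CPM), Atf3 (29.8 against 64.8 and 99.3 CPM) and Hspa1b (3.20 against 11.8 and 12.8 CPM). In 2439 large intestinal epithelial cells Fosb alone of the 10 was called higher (6.08% of genes) and 0 lower (6.82%). It stood at 30.7 CPM against 4.07 and 3.57 CPM. Egr1 there was 51.4 CPM against 20.3 and 22.5 CPM, Jun 229 CPM against 59.4 and 61.7 CPM, and Fos 167 CPM against 147 and 146 CPM. Junb was below the spots there, at 61.5 CPM against 81.5 and 86.4 CPM. Fewer expressing cells and less RNA per cell cannot be told apart in spots, which hold several cells each.

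Fos and Egr1 levels were higher in pooled stromal and endothelial cells, and in pooled immune cells, than in pooled epithelial cells of both tissue libraries. The stromal and endothelial pool held 494 CPM (small intestine) and 1225 CPM (large intestine) of Fos, immune cells 872 and 1246 CPM, and epithelial cells 139 and 167 CPM. For Egr1 the stromal and endothelial cells were highest (637 and 1008 CPM), with immune cells at 268 and 238 CPM. For Hspa1a the same compartment gave 43.3 and 245 CPM against 2.11 and 8.79 CPM in the epithelium.

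Cells were then assigned to classes by marker genes. A class is called by its markers with the suffix -like, and 81.0% of small and 64.6% of large intestinal tissue cells were assigned. Each tissue gave 14 named classes of at least 20 cells. A further small intestinal class passed the colonocyte gate but was led by the ileal genes Fabp6 and Slc10a2 and was left unnamed.

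Macrophage-like cells, whose leading genes in both tissues included the complement genes C1qb and C1qc, had the highest Fos level in both tissues. It was 1703 CPM in 128 small intestinal and 3558 CPM in 145 large intestinal cells. The next classes were plasma-like cells in the small intestine (1024 CPM, a log2 difference of 0.73, 0.63 to 0.83) and smooth muscle-like cells in the large (1520 CPM, 1.23, 1.10 to 1.36). Macrophage-like cells also led for Fosb (435 and 954 CPM), Atf3 (295 and 937 CPM) and Hspa1a (91.8 and 368 CPM), though in the small intestine Fosb and Hspa1a did not exceed the fibroblast-like levels of 380.1 and 78.0 CPM beyond counting error (log2 differences 0.19, -0.07 to 0.46, and 0.23, -0.36 to 0.85). With classes taken from clusters, plasma-like cells (376 CPM) led for Fosb and fibroblast-like cells (78.2 CPM) for Hspa1a in that tissue.

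Blood endothelial-like cells led for Jun (1448 CPM), Egr1 (1468 CPM) and Ier2 (1086 CPM) in the small intestine, from 40 cells. For Egr1 the fibroblast-like class came within counting error of it (1256 CPM). In the large intestine Egr1 did not differ beyond counting error between fibroblast-like (1295 CPM) and macrophage-like cells (1294 CPM). Lymphatic endothelial-like cells, the vessel type that the sort enriched, had less Fos and Ier2 than blood endothelial-like cells: Fos was 161 against 586 CPM in the small and 344 against 1178 CPM in the large intestine, and Ier2 118 against 1086 and 143 against 669.8 CPM. This order did not extend to every gene. Small intestinal Fosb was 211 against 204 CPM. The HSP70 sum was 80.4 against 85.6 CPM in the small intestine, where the intervals (65.3 to 98.0 and 45.6 to 146 CPM) overlap, and 166 against 285 CPM in the large. Hspa1b was higher and Hspa1a lower in the lymphatic cells of both tissues, from few UMIs. The small intestinal blood endothelial-like cells held 4 UMIs of Hspa1b and 9 of Hspa1a. In the large intestine Hspa1b was 116 CPM (76 UMIs) against 85.9 CPM (35 UMIs). The orders of the single copies were not set against counting error.

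Junb was highest in macrophage-like cells of both tissues (1449 and 2132 CPM), in the small intestine not beyond counting error above blood endothelial-like cells (1257 CPM). With classes taken from clusters, T or NK-like cells (2207 CPM) led in the large intestine. Junb was also above its median over classes (190.4 and 227 CPM) in T or NK-like and B-like cells of both tissues. It was 1032 CPM in T or NK-like cells and 564 CPM in B-like cells of the small intestine, and 1530.4 and 1067 CPM in the large. Fos in the same cells was 74.7 and 141 CPM in the small intestine, where the median class had 151 CPM, and 404 and 439.9 CPM in the large, where it had 422 CPM. Egr1 was 42.0 and 8.34 CPM in the T or NK-like cells of the small and large intestine, below the pooled epithelium, and macrophage-like cells held 1474 of the 1869 UMIs of Egr1 in large intestinal immune cells. Plasma-like cells had Fos at 1024 and 857 CPM and Junb at 162 and 74.3 CPM. Among small intestinal classes Dnajb1 was highest in T or NK-like cells (121 CPM), not beyond counting error above B-like cells (78.1 CPM), and among large intestinal classes in macrophage-like cells (123 CPM), not beyond counting error above blood endothelial-like cells (100.6 CPM).

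Fos was lowest in tuft-like cells of both tissues, and Paneth-like cells were the next lowest in the small intestine. Tuft-like cells, chemosensory cells marked by Avil, Dclk1 and Trpm5, held 4 UMIs of Fos in 100 small intestinal cells (2.52 CPM) and 32 UMIs in 79 large intestinal cells (24.9 CPM). Paneth-like cells, the defensin-secreting cells of the crypt base, had Fos at 28.1 CPM, Jun at 41.5 CPM and Junb at 23.9 CPM, the last 2 the lowest of any named class in that tissue. Large intestinal tuft-like cells held Jun at 229 CPM and Ier2 at 132 CPM, where the median class had 269.9 and 234 CPM. Stem-like cells, whose leading genes included Lgr5, Ascl2 and Nr2e3, had Fos at 137 CPM in the small intestine, near the median class, and at 45.5 CPM in the large. Their Jun was 287 CPM in the small intestine, where the median class had 294 CPM, and 221 CPM in the large, where it had 269.9 CPM.

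The absorptive cells of the 2 tissues were unlike. Large intestinal colonocyte-like cells (249 cells, led by Aqp8 and Slc26a3) held Fos at 1160.1 CPM, Jun at 986 CPM, Atf3 at 403 CPM and Egr1 at 324 CPM. Small intestinal enterocyte-like cells (162 cells, led by Apoa4 and Fabp1) held 139.6, 161, 22.1 and 56.2 CPM of the same genes. Colonocyte-like cells had a median mitochondrial share of 12.9% of UMIs, the highest of the large intestinal classes, and enterocyte-like cells 10.6%. The part of that share in these levels was not tested.

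Goblet-like cells showed the opposite order. In the small intestine (185 cells) Fos was 449 CPM, Fosb 257 CPM and Egr1 314 CPM, and in the large intestine (752 cells) 107, 34.1 and 34.9 CPM. Hspa1b had 3 UMIs in all small intestinal goblet-like cells and 86 UMIs (4.60 CPM) in the large intestinal ones.

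**Figure D3:**
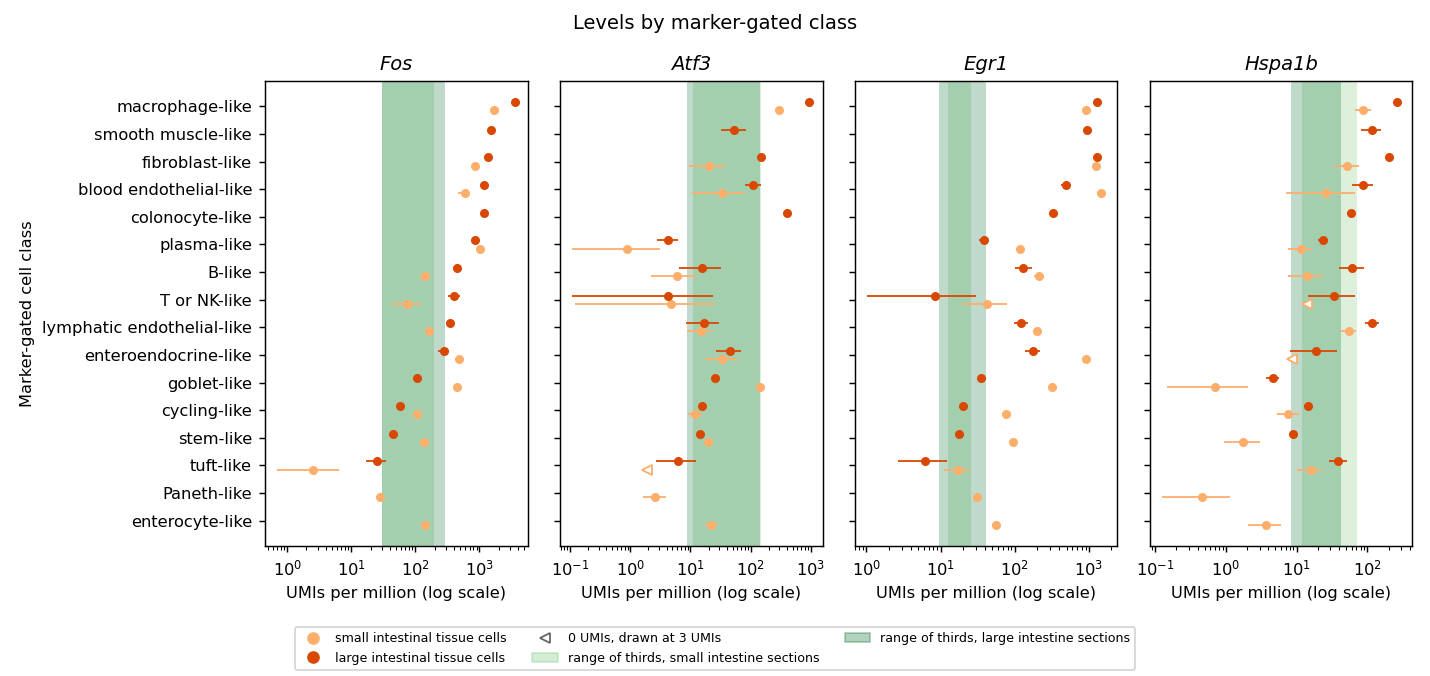
Levels (CPM, log axis) of 4 genes in the named marker-gated classes of small and large intestinal tissue, with 95% Poisson intervals, and the range over tertiles of spots in each tissue's sections (shaded). Open triangles mark classes with 0 UMIs, drawn at 3 UMIs. Macrophage-like cells are at the far right and tuft-like cells at the left for Fos, and most classes are to the right of the shaded range for Egr1.

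To place the classes against tissue, spots were ranked within each section and split into tertiles, once by smooth muscle UMIs and once by enterocyte (small intestine) or colonocyte (large intestine) UMIs. Counting a class as above the tissue where it exceeded every tertile of both sections, 66 of 140 pairs of gene and class were above in the small intestine and 85 of 140 in the large, against 27.6% and 29.8% of such pairs over all genes. Fosb was above in 13 of 14 classes in both tissues, all but the tuft-like class. Egr1 was above in 13 of 14 small and 8 of 14 large intestinal classes, and Ier2 in 13 and 10. Atf3 was above in 1 (macrophage-like) and 3 classes (macrophage-like, colonocyte-like and fibroblast-like). Hspa1b was above in 1 class in the small intestine and below every tertile in 8, and above in 7 in the large. Of those 8, the enteroendocrine-like and T or NK-like classes held no UMI. In the T or NK-like class 3 UMIs would be 14.0 CPM, above the lowest tertile (11.8 CPM). The plasma-like class, at 11.4 CPM from 26 UMIs, was close to that tertile.

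Within sections, Fos, Jun, Junb and Atf3 were higher where absorptive markers were, and the HSP70 genes where smooth muscle markers were. Fos was 185 and 198 CPM in the highest tertile of small intestine spots by enterocyte UMIs, and 30.4 and 32.2 CPM in the lowest. The large intestine gave 286 and 270.0 CPM against 32.5 and 30.7 CPM. Atf3 showed the widest gap, with 113 and 147 CPM against 11.1 and 17.2 CPM in the small intestine and 137 and 143 CPM against 9.41 and 8.61 CPM in the large. Its log2 ratios were 3.35, 3.09, 3.86 and 4.05 in the 4 sections. Jun (1.45 to 1.80) and Junb (1.49 to 1.58) were higher in the same spots of all 4 sections. In the absorptive split, 5 of 9 tested members were higher in both small intestine sections, where 32.3% of genes were, and 3 lower (62.3%). Fosb had too few UMIs there. In the large intestine 7 of 10 were higher in both sections (27.0% of genes) and 2 lower (68.4%). With mitochondrial and ribosomal protein genes left out of the total, Dnajb1 was no longer higher in both large intestine sections.

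Ier2 went the other way. It was 124.0 and 125.5 CPM in the large intestine spots with the fewest colonocyte UMIs and 56.8 and 58.8 CPM in those with the most. Egr1 differed by tissue: its log2 ratio was 0.10 and -0.14 in the small intestine sections and 1.88 and 2.09 in the large.

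Hspa1a and Hspa1b had the highest ratios of the 10 genes in the smooth muscle split of all 4 sections. In spots with the most smooth muscle UMIs, Hspa1b was 53.6 and 72.1 CPM (small intestine) and 42.5 and 39.9 CPM (large intestine), against 11.8, 12.8, 9.83 and 10.98 CPM in spots with the fewest. Hspa1a gave log2 ratios of 2.58, 2.90, 1.89 and 1.67 in the same split. Fosb was also higher in muscle-rich spots, at 0.80 (-0.26 to 1.86), 0.99, 0.73 and 1.06, from too few UMIs to enter the counts below. Jun was lower there in the small intestine (-0.22 and -0.47) and higher in the large (0.45 and 0.31). In the small intestine 3 of 9 tested members were higher in muscle-rich spots of both sections, where 52.1% of genes were, and 6 lower (40.3%). In the large intestine 4 were higher (59.4%) and 4 lower (30.6%). With mitochondrial and ribosomal protein genes left out of the total, 2 were lower there, since Atf3 and Dnajb1 then had opposite signs in the 2 sections. The shares of members that were higher were below those of all genes.

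**Figure D4:**
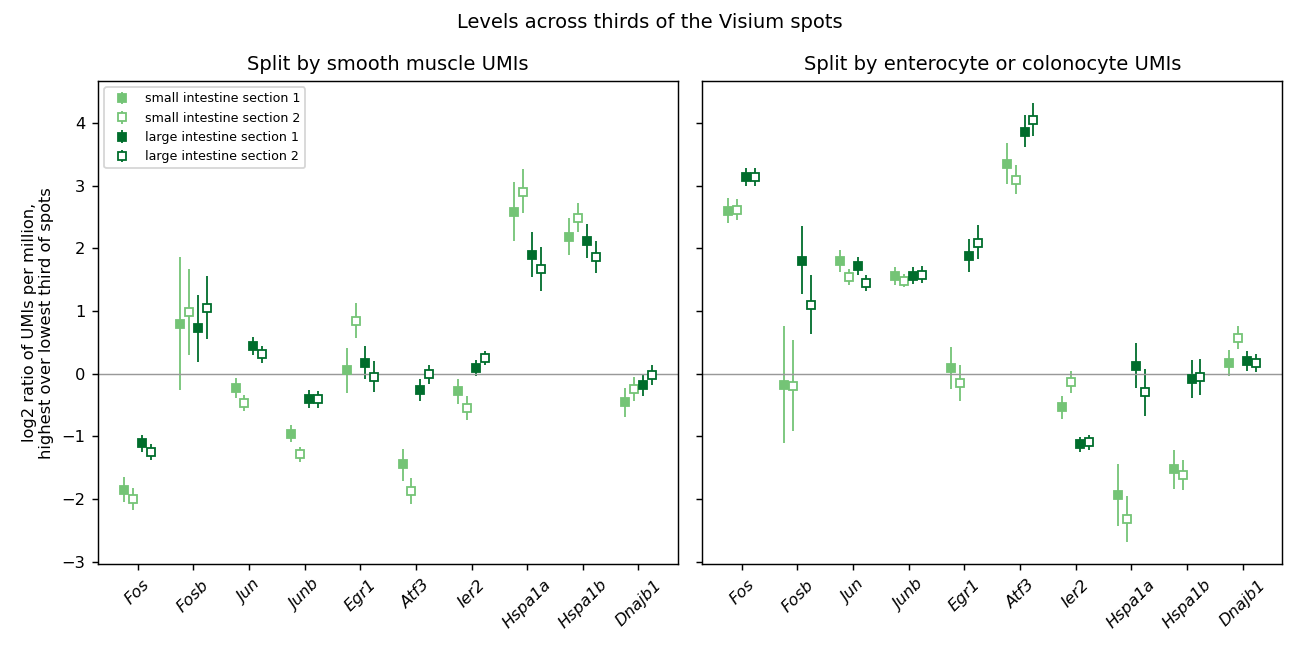
Log2 ratio of the highest to the lowest tertile of spots, by smooth muscle UMIs (left) and by enterocyte or colonocyte UMIs (right), for each gene in the 4 sections with 95% intervals. Fos, Jun, Junb and Atf3 are above 0 in all 4 sections on the right, and Fosb, Hspa1a and Hspa1b on the left.

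Set against those spots, absorptive cells of the 2 tissues differed in direction for Fos and Atf3. Enterocyte-like cells, at 139.6 CPM of Fos and 22.1 CPM of Atf3, were below the enterocyte-rich tertile of both sections (185 and 198 CPM, 113 and 147 CPM). Colonocyte-like cells, at 1160.1 CPM of Fos and 403 CPM of Atf3, were above the colonocyte-rich tertile of both (286 and 270.0 CPM, 137 and 143 CPM). For Fosb, Egr1 and Ier2 the direction was shared, since both classes exceeded every tertile of their tissue. Egr1 in enterocyte-like cells was 56.2 CPM against 18.0 and 17.7 CPM in the enterocyte-rich tertile.

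Detection of several of the genes in 1 barcode was read after thinning every barcode to 2000 UMIs, which left out barcodes with fewer (237 of the small and 644 of the large intestinal tissue cells, 51 control and 45 cocultured organoid cells, and 10 to 147 spots a section). At least 4 of the 7 immediate-early genes were detected in 14.6% of small and 14.5% of large intestinal tissue cells, 10.3% of control and 6.82% of cocultured organoid cells, and 0.908% to 1.07% of spots. Spots hold several cells, free RNA was not subtracted, and the share that the separate levels would give was not computed, so these shares are no measure of coexpression. The share with none was 25.1% and 26.3% in control and cocultured organoid cells, 39.1% and 42.6% in tissue cells and 39.9% to 47.7% in spots. All 7 genes were seen together in 1.18% and 1.85% of tissue cells and in no organoid cell or spot. Fosb was detected in 13.6% of thinned small intestinal cells (27.6% unthinned) against 0.582% and 0.701% of spots.

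By class, 79.2% (70.0 to 86.6, exact binomial) of 101 thinned small intestinal and 93.9% (88.3 to 97.3) of 131 large intestinal macrophage-like cells held a Fos UMI. None of 100 tuft-like cells of the small intestine did, which allows up to 3.62% of such cells to hold a UMI at that depth (exact binomial). Without thinning, and so at greater depth, the tuft-like share was 4% at a median depth of 15784 UMIs per cell, and the macrophage-like share 85.2% at 4594 UMIs.

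Large and small intestinal tissue cells were compared within the 12 classes that both had. Hspa1b was higher in the large intestine in 12 of 12 classes, as 2.11% of genes were, with no UMI in the small intestinal enteroendocrine-like and T or NK-like cells. Hspa1a was higher in 10 of 11, with the interval above 0 in 6. The sum of both copies, which does not depend on how the counted UMIs were split, was higher in 12 of 12, with the interval above 0 in 11, all but the enteroendocrine-like cells. Egr1 was lower in 10 of 12, with a median log2 ratio of -1.60, and 13.9% of genes were lower in at least 10. Fos was higher in 7 and lower in 5. Macrophage-like cells (median log2 ratio over the 10 genes 1.19) and fibroblast-like cells (0.84) were higher in the large intestine for 10 of 10 genes, where 59.7% and 62.7% of genes with at least 100 UMIs in the class of either tissue were. Tuft-like (1.41) and B-like cells (0.97) were higher for 8 of 10. Of their genes with at least 100 UMIs, 2 of 2 were higher in tuft-like (39.8% of genes) and 3 of 4 in B-like cells (40.9%). Goblet-like (-1.72), enteroendocrine-like (-0.86) and stem-like cells (-0.50) were lower for 8 of 10. With at least 100 UMIs, lower were 8 of 8 genes in goblet-like (38.6% of genes), 4 of 4 in enteroendocrine-like (27.2%) and 8 of 9 in stem-like cells (54.1%). In plasma-like cells 6 of 9 were lower, where 16.9% of genes were. Over whole libraries 2 genes, Hspa1a and Hspa1b, were at least 2-fold higher in the large intestine, where 11.3% of genes were, and 0 lower (8.68%). The libraries also differed in mitochondrial share, at a median of 37.9% of UMIs in all small and 7.45% in all large intestinal barcodes.

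In organoids, Fos was 327 CPM in control and 230.0 CPM in cocultured organoids, above the 102 and 113 CPM of the small intestine sections. Fosb was 42.3 and 13.2 CPM, Egr1 73.96 and 75.2 CPM, Ier2 147 and 166 CPM and Atf3 79.7 and 60.9 CPM. Fosb and Egr1 were called 4-fold higher than both sections in both organoid libraries, 2 of 10 genes where 6.32% (control) and 6.84% (cocultured) of genes were. Egr1 was just past the limit, at 4.003 and 4.07 times the higher section, and with doublets kept it was not called in control organoids (log2 ratio 1.99). Of the 11 reference genes, 2 were higher and 1 lower by 4-fold in each organoid library. At 2-fold, 4 genes were higher in each (Fos and Ier2 besides), where 19.3% and 19.4% of genes were. In cocultured organoids 2 were then lower (34.5%) and in control organoids 1 (31.9%). Hspa1a, at 1.75 CPM in cocultured organoids, was called lower, where 21.2% of genes were, and 0 members were lower in control organoids (19.9%). By the mean of each cell's CPM Hspa1a was not called (log2 ratio to the higher section -1.79), and under the loose or the strict cell filter Hspa1b was called lower as well. In the organoid classes Atf3 was 144 CPM in control enterocyte-like cells against 26.5 CPM in cycling-like and 11.6 CPM in stem-like cells. Of the pairs of gene and class, 13 of 30 in control (26.7% over all genes) and 14 of 40 in cocultured organoids (26.6%) exceeded every tertile of the small intestine sections.

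Cocultured organoids had less Fosb, Hspa1a and Hspa1b than control organoids. Fosb was 13.2 against 42.3 CPM, a log2 ratio of -1.67 (-1.78 to -1.57), Hspa1a 1.75 against 5.01 CPM (-1.52, -1.81 to -1.22) and Hspa1b 5.86 against 12.5 CPM (-1.09, -1.26 to -0.92). These 3 of 10 genes were at least 2-fold lower, where 2.45% of genes were, and 0 were higher (1.17%). Fos (-0.51), Jun (-0.53) and Atf3 (-0.39) were lower by less, Junb (-0.0038) and Egr1 (0.02) had intervals that include 0, and Ier2 (0.18) was higher. The difference in Fosb was present in each class found in both: -1.21 (-1.50 to -0.91) in stem-like, -1.96 (-2.20 to -1.73) in cycling-like and -2.01 (-2.33 to -1.69) in enterocyte-like cells. For the HSP70 genes only the enterocyte-like class had an interval below 0 in both. Hspa1b in cycling-like cells gave -0.06 (-0.57 to 0.47). In control organoids the stem-like, cycling-like and enterocyte-like classes held 28, 47 and 61 of the 540 Hspa1b UMIs, so most came from other cells. Only 42.8% of control and 50.6% of cocultured organoid cells were assigned to any class. Of 25 tested other immediate-early genes, 4 were also 2-fold lower in coculture, Ccn2 (-4.40), Fosl1 (-1.51), Klf2 (-1.17) and Nr4a1 (-1.07), and 0 were higher. With 1 library a condition, a difference between preparations and one between conditions cannot be told apart.

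A high mitochondrial share is a usual sign of cell damage, and levels were also read over nuclear-gene UMIs by each barcode's mitochondrial share, for all barcodes with at least 500 genes. In small intestinal tissue Fos was 339.7 CPM below 5% mitochondrial UMIs and 190.3, 162, 149 and 118 CPM in the bins from 5, 10, 20 and 50%. None of the 10 genes was higher in the highest bin than in the lowest, where 75.7% of genes with at least 100 UMIs in either bin were. The share of barcodes with a stromal or immune gate was 58.5%, 35.0%, 22.4%, 6.25% and 2.09% over the same bins, and its part in these levels was not tested. In large intestinal tissue Fos was 688 CPM below 5%, 112 CPM from 5 to 10%, and 605, 765 and 549.9 CPM above, where the stromal or immune share was 50.6%, 10.4%, 11.8%, 7.43% and 0.789%.

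Jun in the large intestine was 507 CPM below 5%, 183 CPM in the 5 to 10% bin, 589 CPM from 10 to 20%, 1137 CPM in the 20 to 50% bin and 890 CPM above 50%. In organoids Jun was 211 and 140.3 CPM below 5% and 596 and 645.0 CPM above 50% (29 control and 25 cocultured barcodes). Fosb in control organoids was 46.2 CPM below 5% and 170.4 CPM above 50%. Higher in the highest bin than in the lowest were 6 of 10 genes in large intestinal tissue (60.6% of genes), 5 of 9 tested in control organoids (39.6%) and 7 of 9 in cocultured organoids (43.3%). The interval was above 0 for Jun, Egr1 and Atf3 in all 3 libraries. Over all UMIs in place of nuclear-gene UMIs, which lowers every gene of a library by 1 factor, these counts were 0 of 10 (18.7% of genes), 2 of 9 (6.27%) and 2 of 9 (16.9%). Barcodes over 20% are left out of all comparisons above.

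**Figure D5:**
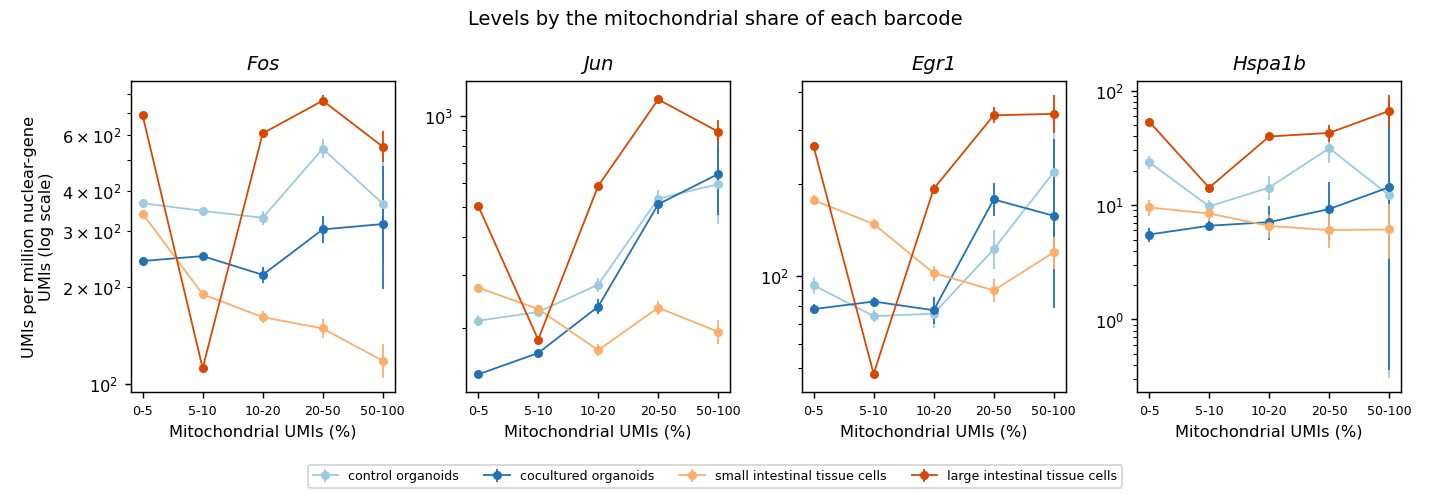
Levels of 4 genes (CPM over nuclear-gene UMIs, log axis) by the mitochondrial share of each barcode in the 4 cell libraries, with 95% Poisson intervals. Small intestinal Fos is highest in the first bin and lowest in the last, large intestinal levels dip in the 5 to 10% bin, and organoid Jun is highest in the last.

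Across the 28 named classes of both tissues, the members varied together to different degrees. These correlations of log2(CPM + 1) are descriptions over classes that share libraries. Fos and Fosb had Pearson's r = 0.95, Fos and Jun 0.83, Jun and Egr1 0.80 and Hspa1a and Hspa1b 0.84, whereas Dnajb1 ranged from 0.23 with Egr1 to 0.70 with Junb and had 0.43 with Hspa1b. The 5 other genes closest to the mean of the 7 immediate-early genes were Btg2 (0.86), an antiproliferative gene, Zfp36 (0.84), an mRNA decay factor, Dusp1 (0.83), a MAP kinase phosphatase, Jund (0.81), another Jun protein, and Socs3 (0.79). Among those closest to the heat shock genes were Camsap2 (0.83), Rhob (0.81), Tubb6 (0.80) and Mcl1 (0.79). For Btg2, Zfp36, Dusp1 and Jund, the log2 ratios of tissue cells to the mean of the sections were 0.73, -0.79, 0.27 and -0.01 in the small intestine and 0.99, 0.08, 0.55 and 1.30 in the large.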

How the data were processed

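The deposited files hold raw counts, UMIs per gene and barcode, written by Cell Ranger 6.0.1 (cells) and Space Ranger 1.2.1 (spots) per the file headers, with mm10 named in the submitters' processing notes. The authors' feature and barcode lists are whole-library lists without cell types. Cell barcodes under 500 genes or over 20% mitochondrial UMIs were left out, and doublets were removed by Scrublet (scanpy 1.11.5), the top 0.8% per 1000 cells by score. Spots needed 500 UMIs. Counts were summed per library or class and given as CPM. For ratios, counts under 3 were set to 3. With 1 library a group no test was run, and a fold of 4 against both sections, or 2 between single libraries, with at least 100 UMIs, served as the call. The call was checked only on simulated Poisson counts with known folds, which hold no difference of platform, dissociation or cell makeup.

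A marker counted as positive in a cell with a UMI and at least 2 times the library's mean level. Classes needed 3 positive markers and a lead of 2 over the next class, from 21 fixed lists. Deposited UMIs per library ran from 24356162 to 142501907. The genes and lists were chosen with earlier results of these data known. Named beside them, by rule, are the 10 genes with the highest ratio in both tissues and the 5 genes of most similar class pattern. One gene that this rule names beside the heat shock genes is not reported here. The 2 GFP rows of the tissue libraries were not used here.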

Additional observations from a re-analysis of the deposited data

Results flagged for a closer look

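Of the members, 3 were below both sections in the tissue cells of the small intestine and above both in those of the large intestine. As log2 ratios to the nearer section, Junb gave -0.066 and 0.63, Hspa1a -0.89 and 1.15, and Hspa1b -1.62 and 0.50. The -0.066 of Junb is nearer 0 than the median of all tested genes (-0.15), and its 2 small intestine sections differed by 0.29. In gated epithelial cells Junb was below the spots with few smooth muscle UMIs in both tissues (log2 ratios to the higher section -1.45 and -0.49). Hspa1a and Hspa1b kept their directions there. The difference between the tissues was not tested, since each tissue has 1 cell library.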

How the results depend on the processing

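Alternatives covered looser and stricter cell filters, doublets kept, other scalings, the mean of each cell's CPM, other call limits, each section left out, other gates and clustering. Among log2 ratios and shares of single genes, 235 of 460 values under an alternative stayed within the spread allowed for them and 225 moved further, and 0 changed the sign of a call. Shares of all genes are given in this report for the 2-fold limits against sections, gated epithelial cells and the mitochondrial bins. The other counts below stand without such a share and describe the members alone. In the small intestine 1 gene was higher at 8-fold and 1 lower at 2-fold. In the large intestine 1 gene (Fosb, without Egr1) was higher under the strict cell filter, 4 by the mean of each cell's CPM, 5 at 2-fold, 1 at 8-fold and 1 in gated epithelial cells against spots with few smooth muscle UMIs. In control organoids 1 was higher with doublets kept, 4 at 2-fold and 1 at 8-fold, and 1 was lower at 2-fold. In cocultured organoids 4 were higher at 2-fold and 0 at 8-fold, and 2 were lower under the loose and under the strict filter, 0 by the mean of each cell's CPM, 2 at 2-fold and 0 at 8-fold. Leaving out 1 section, the count lower in cocultured organoids ranged from 1 (without section 2) to 2 (without section 1, when Hspa1b joined Hspa1a). At 4-fold, 0 genes were lower in coculture and 0 higher in the large intestine. Over all UMIs instead of nuclear-gene UMIs, the members higher in the highest mitochondrial bin numbered 2 instead of 5 in control organoids (6.27% instead of 39.6% of genes), 2 instead of 7 in cocultured organoids (16.9% instead of 43.3%) and 0 instead of 6 in large intestinal tissue (18.7% instead of 60.6%). That denominator, by its construction, lowers all genes of a library by the same factor. The cause of the other shifts was not tested. No paired analysis was possible because no test was run and cell groups hold 1 library each.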
